A study of Homo sapiens with 6 samples.

Results

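The genes described here are 60 genes of energy and nutrient signaling and of autophagy: the subunits of AMP-activated protein kinase (AMPK), the mTOR complexes and the proteins that control them, and the core machinery and cargo receptors of autophagy. They were taken by their symbols from a table of 61806 genes, and they fall into 12 roles. The list was drawn up with earlier results of these data known. RNA sequencing was performed on U87-MG, a human glioma cell line, in 3 libraries of the negative control (NC), labelled wildtype, and in 3 libraries labelled GRIK1 siRNA, with the genotype given as GRIK1 knockdown. GRIK1 encodes a kainate-type glutamate receptor subunit. The labels give no time after transfection. They do not say whether siRNA1, siRNA2 and siRNA3 stand for repeats or for different siRNA sequences, and the series' design text speaks of shRNA. Nothing states that the libraries of a group came from separate cultures, so the p-values measure only the spread between these libraries, which may be technical.

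AMPK is switched on when cellular energy falls. It is a trimer of a catalytic alpha, a scaffolding beta and a nucleotide-sensing gamma subunit, and LKB1 is one of the kinases that activate it. mTOR is a kinase that works in a growth-promoting complex with raptor (mTORC1) and in another with rictor (mTORC2), and mTORC1 is recruited to lysosomes by the Rag GTPases when amino acids are plentiful. AMPK turns mTORC1 down through TSC2 and raptor, and both kinases act on ULK1, which starts autophagosome formation. The membrane then grows with the help of a PI3-kinase complex and of lipid transfer proteins, and a conjugation system attaches the ATG8 proteins (LC3 and GABARAP) to it, where receptors such as p62 bring the cargo. Glioma cells often have an active PI3K and mTOR pathway. Much of the control in this pathway is by phosphorylation and by protein turnover, which RNA does not measure.

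The labelled knockdown was checked first. GRIK1 was counted 18, 9 and 8 times in NC, against 15, 20 and 20 times in the libraries labelled GRIK1 siRNA. It was therefore not lower in the latter, with a difference of 0.12 in log2(FPKM + 1) and a two-sided exact permutation p of 0.4, where the smallest p that 3 libraries against 3 allow is 0.1. FPKM is the count scaled to the exonic size of the gene and to the library total. GRIK1 averaged 0.23 FPKM in NC and 0.34 FPKM in the other group, below the 0.5 FPKM asked of tested genes. Counts this low cannot show whether the gene was knocked down. For this reason the group is called by its label throughout. Library totals lay between 11099909 and 14006968 counts. Library NC 3 stood apart: it gave 8.45% of its counts to ribosomal protein genes, against 4.35% to 4.99% in the other 5, and its log2 expression correlated with theirs at 0.955 to 0.970, while the other 5 correlated with each other at 0.984 to 0.995. Results are therefore given with 6 libraries and, beside them, without NC 3. The line's label was checked against markers. The summed level of 7 mesenchymal glioma genes was 1088 to 1736 FPKM, with the lowest value in NC 3. Most of it was VIM, at 825 to 1076 FPKM, whereas CHI3L1 was at 1.70 to 3.53 FPKM and NES at 0.21 to 0.69 FPKM. The genes GFAP, OLIG2 and SOX2 together reached 0.47 to 1.01 FPKM. The leukocyte gene PTPRC was at or below 0.03 FPKM while CD68, of the same list, was at 2.11 to 4.06 FPKM. The epithelial gene EPCAM was at 0.91 to 2.09 FPKM and KRT5 at or below 0.02 FPKM, and the endothelial pair PECAM1 and VWF summed to 0.02 to 0.06 FPKM.

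Transcripts of 58 of the 60 genes had a 6-library mean of 0.5 FPKM or more and were tested among 15870 genes. ULK2, a paralog of the autophagy kinase ULK1, had 0 counts in each NC library, against 0, 1 and 1 in the group labelled GRIK1 siRNA, where a count of 0 still allows up to 3 counts. FOXO1, a transcription factor of the FOXO family, lay between 0.28 and 0.48 FPKM in every library. The levels of the tested genes spanned from 0.56 FPKM for DEPDC5 to 165 FPKM for RRAGA, with a median of 9.40 FPKM, against 3.86 FPKM for all tested genes. In the plot of levels, RRAGA, SQSTM1, EIF4EBP1, RHEB, GABARAP and MAP1LC3B were the most abundant.

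**Figure D1:**
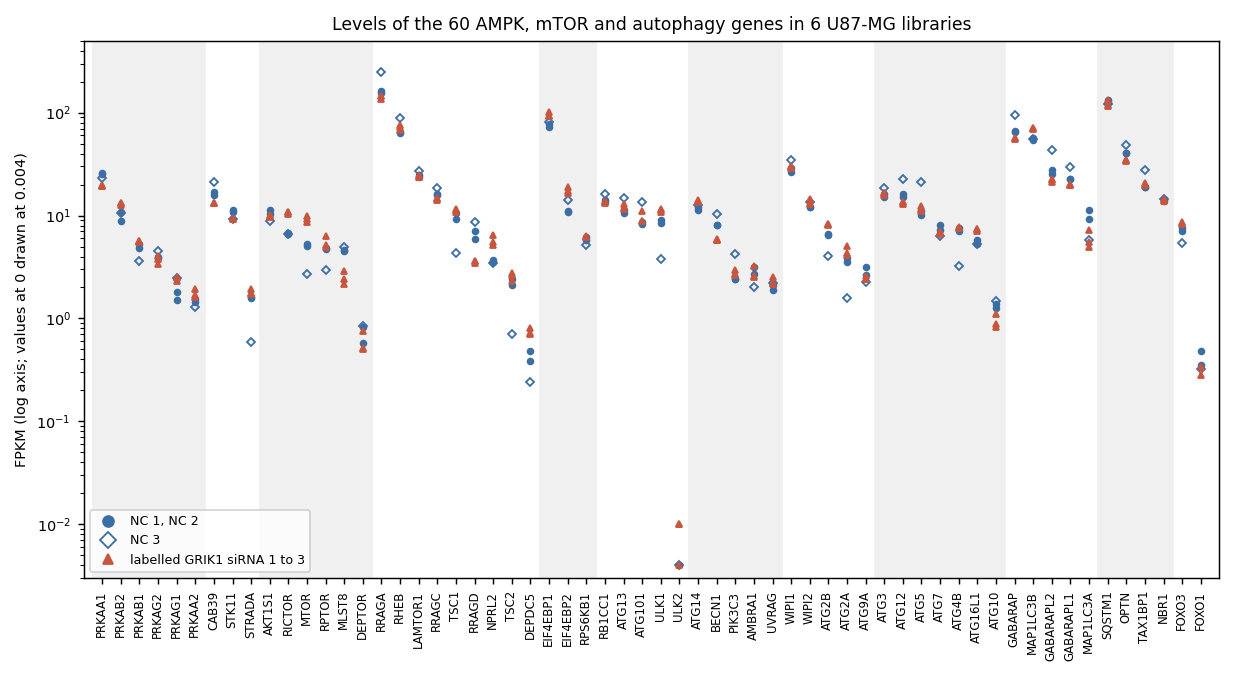
FPKM of each of the 60 genes (log axis) in NC 1 and NC 2 (blue circles), NC 3 (open diamonds) and the 3 libraries labelled GRIK1 siRNA (red triangles), in shaded blocks by role. Values at 0, seen for ULK2, are drawn at the bottom. In many genes NC 3 lies apart from NC 1 and NC 2, at the top for RRAGA and at the bottom for STRADA and TSC2.

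Of the 58 genes, 4 passed the test between the groups (edgeR's quasi-likelihood test with Benjamini-Hochberg adjustment over all tested genes, adjusted p under 0.05). MTOR and RICTOR rose, and MLST8 and RRAGD fell. The share was 6.90%, against 3.09% of all tested genes, of which 1.61% were called higher and 1.48% lower. With an absolute log2 fold change over 1 as well, MTOR, MLST8 and RRAGD remained, against 1.41% of all tested genes. At an unadjusted p under 0.05 in this edgeR fit were 21 of the 58 genes and 3987 of all 15870. Counts at that level in the roles below are to be read beside this share of all genes. Values below are counts scaled to library totals with TMM factors (normalized CPM) unless FPKM is named, in the order of libraries 1, 2 and 3.

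The catalytic kinase gene MTOR (ENSG00000198793, chr1:11106535-11262556, minus strand) had 70.6, 68.2 and 40.8 normalized CPM in NC and 128, 122 and 114 in the group labelled GRIK1 siRNA. The groups did not overlap, and NC 3 was the lowest of the 6. The log2 fold change was 1.02 (SE 0.21, adjusted p = 0.0497 by edgeR), and 0.81 (SE 0.063) without NC 3. RICTOR (ENSG00000164327, chr5:38937920-39074399, minus strand), which defines mTORC2, had 90.6, 89.8 and 102 normalized CPM in NC and 136, 142 and 144 in the other group. All 3 NC libraries were close together here, NC 3 included. Its log2 fold change was 0.58 (SE 0.11, adjusted p = 0.0433 by edgeR), and 0.64 (SE 0.053) without NC 3.

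MLST8 (ENSG00000167965, chr16:2204248-2209453, plus strand), a small WD40 subunit that both mTOR complexes share, had 19.4, 19.9 and 24.3 normalized CPM in NC and 10.3, 9.11 and 12.3 in the group labelled GRIK1 siRNA. The second group lay at 0.498 of the mean of the first, and NC 3 was the highest library. The log2 fold change was -1.01 (SE 0.17, adjusted p = 0.0353 by edgeR), and -0.89 (SE 0.13) without NC 3. RRAGD (ENSG00000025039, chr6:89364616-89412273, minus strand), a Rag GTPase of the lysosomal amino acid sensor, had 29.8, 35.8 and 49.5 normalized CPM in NC and 17.2, 18.1 and 18.0 in the other group. NC 3 was again the highest and the groups were apart. Its log2 fold change was -1.11 (SE 0.19, adjusted p = 0.0378 by edgeR), and -0.88 (SE 0.10) without NC 3. The 4 genes are the same in direction in each fit. They lost their calls, however, when any 1 of the 5 libraries other than NC 3 was left out, where 0 of the 58 and 0 of all tested genes were called (9 to 21 of the 58 and 2238 to 4434 of all genes at an unadjusted p under 0.05). With transcript length corrected, MTOR and RICTOR were past the threshold no longer, at an edgeR adjusted p of 0.0507 and 0.108. MTOR also lost its call with a filter of 1 FPKM (edgeR adjusted p = 0.0510) and with limma on log2(FPKM + 0.1) (adjusted p = 0.0849), and RICTOR with no filter (edgeR adjusted p = 0.0590). With limma on log2(FPKM + 1), RICTOR, MLST8 and RRAGD were called and MTOR had an adjusted p of 0.0693. DESeq2 on the same counts called 8 of the 58, adding PRKAA1, DEPDC5, NPRL2 and BECN1. In the roles below with 0 genes called by edgeR, limma also called 0, and DESeq2 called PRKAA1 and BECN1 alone.

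**Figure D2:**
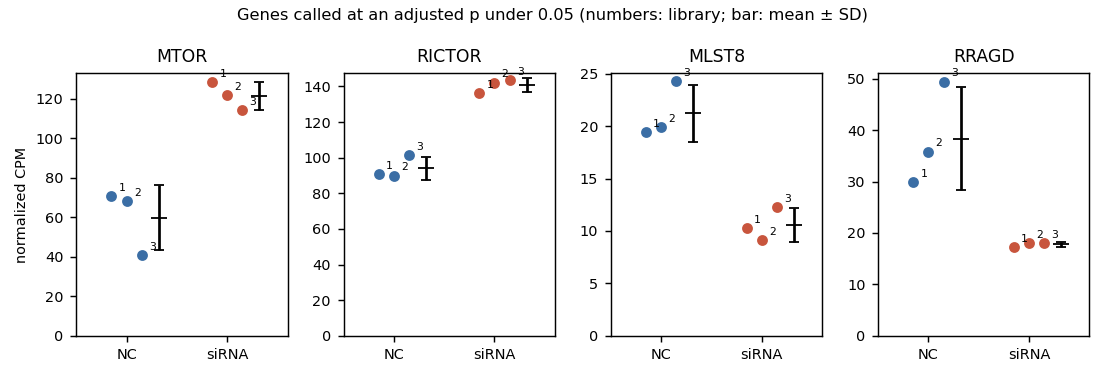
Normalized CPM (linear axes from 0) of the 4 genes with an adjusted p under 0.05, with each library as a numbered point and the mean ± SD of each group (n = 3) as a bar. NC 3 is the lowest library for MTOR at 40.8 and the highest NC library for RICTOR, MLST8 and RRAGD, and in each panel the groups do not overlap.

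The promoters of the genes that rose are shown because both hold the CCAAT box, a common promoter element that recruits the factor NF-Y. The box is not particular to them. It is also found in genes with a negative fold change, BECN1, RRAGC and STK11 among them. MTOR and RICTOR both hold the GC box GGGCGG too, which is not marked. A part of either element in the rise was not tested. RefSeq promoters were found for 50 of the 60 genes, with none for MLST8 and RRAGD. Each sequence is the 250 bases before the start site in GRCh38.p14, on the gene's own strand, with the CCAAT box in capitals as its reverse complement ATTGG. The MTOR window (chr1:11262552-11262801) holds 3 matches and that of RICTOR (chr5:39074400-39074649) holds 1.
MTOR: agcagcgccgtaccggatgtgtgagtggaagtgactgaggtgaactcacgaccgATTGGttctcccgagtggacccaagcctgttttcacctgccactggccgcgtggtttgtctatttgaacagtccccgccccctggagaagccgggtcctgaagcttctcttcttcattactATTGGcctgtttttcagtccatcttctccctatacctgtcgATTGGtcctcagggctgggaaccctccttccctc
RICTOR: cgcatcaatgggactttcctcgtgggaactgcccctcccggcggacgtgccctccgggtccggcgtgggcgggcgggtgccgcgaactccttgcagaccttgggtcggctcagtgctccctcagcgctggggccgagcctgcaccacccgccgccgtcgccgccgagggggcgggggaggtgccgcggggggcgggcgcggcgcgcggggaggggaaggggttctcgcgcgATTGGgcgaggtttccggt

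The CCAAT box was searched on both strands. The 50 genes have 69 promoters in the table, since some have several. The CCAAT box was present in 20 of the 69, a share below the 32.0% of all 35116 promoters of that length that hold it. The GC box GGGCGG was found in 52 of the 69 (75.4%), against 42.6% of all promoters, and the FOXO element GTAAACA in 0 of the 69, against 2.98%. The set of all promoters was not matched to these genes for expression, and the reason for such gaps was not tested. The E-box CACGTG, which the lysosomal regulators TFEB and TFE3 can bind, was found in 5 of the 69 (7.25%), against 6.34% of all promoters. These windows of 30 bases are shown for their bearing on lysosomal genes, with the E-box in capitals, and a match is a description of letters only.
RRAGC: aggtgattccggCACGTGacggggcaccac
LAMTOR1: ctttccccgcatCACGTGcttgcgtgtacg
TSC2: atgcggccccgtCACGTGatgcaaggatcg
ATG14: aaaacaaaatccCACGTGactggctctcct
ATG3: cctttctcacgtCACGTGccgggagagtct

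The windows lie at chr1:38859867-38859896, chr11:72103445-72103474, chr16:2047859-2047888, chr14:55411834-55411863 and chr3:112561963-112561992, in that order. None of these 5 genes passed the test with the 6 libraries.

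The values of the 3 NC libraries shaped most other results. In 34 of the 58 genes the groups did not overlap, 17 higher and 17 lower in the libraries labelled GRIK1 siRNA. Each direction held 29.3% of the genes, against 19.4% higher and 19.0% lower over all tested genes. Without NC 3, 33 of the 58 were called, 17 higher and 16 lower, and none of these had an absolute log2 fold change over 1. Of all tested genes, 16.9% were then called higher and 18.3% lower. The median log2 fold change of the 58 genes was -0.11 (all tested genes -0.017), and 0.076 without NC 3 (all tested genes 0.0071), so it changed sign with this library. The median absolute log2 fold change was 0.30, against 0.33 for all tested genes. The sign was the same in both fits for 49 of the 58.

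**Figure D3:**
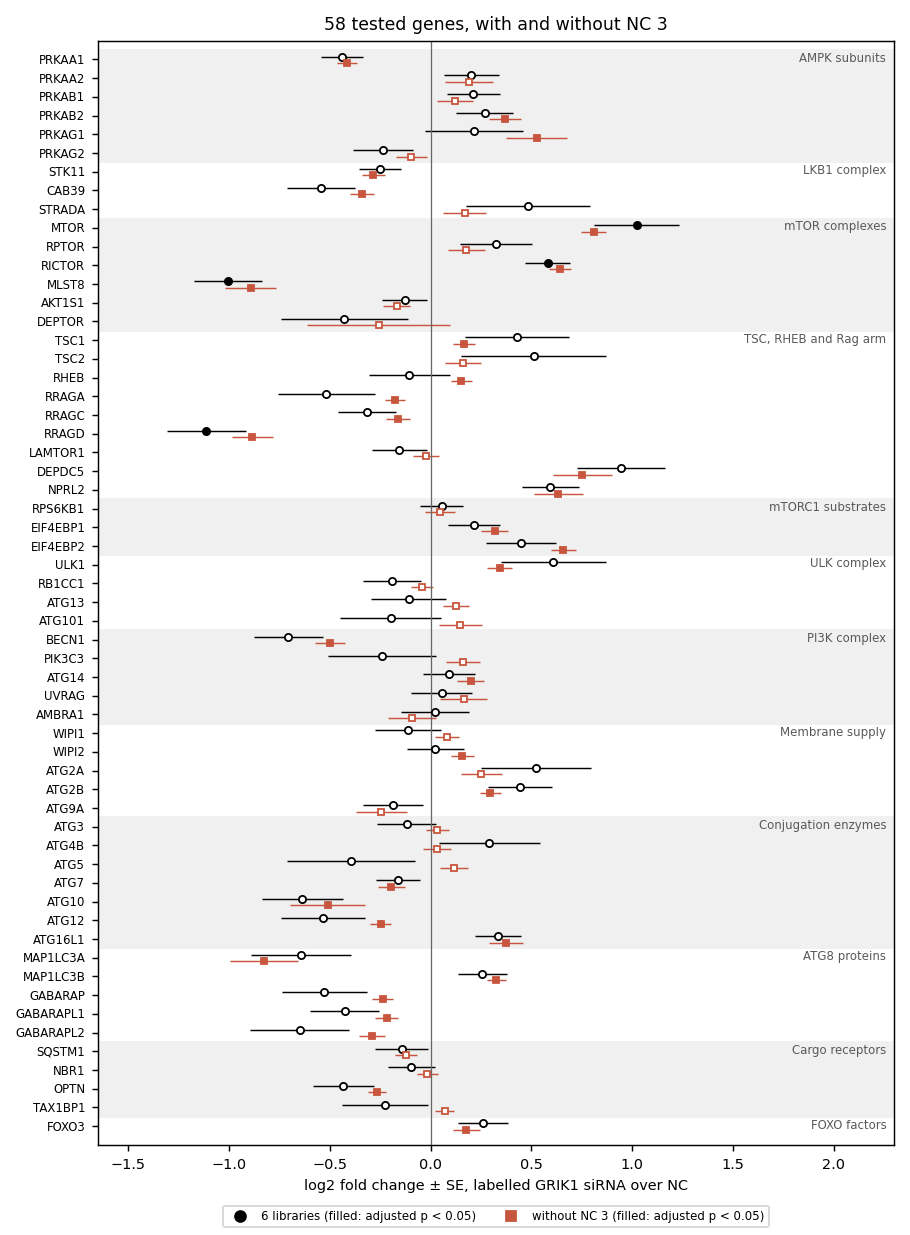
Log2 fold change ± SE of the libraries labelled GRIK1 siRNA over NC for the 58 tested genes, grouped by role, with 6 libraries (black circles) and without NC 3 (red squares), filled where the edgeR adjusted p is under 0.05. Filled black circles mark MTOR, RICTOR, MLST8 and RRAGD, and 33 squares are filled.

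Among the 6 AMPK subunits 0 passed the test with all libraries (1 at an unadjusted p under 0.05), and 3 did without NC 3, where 35.2% of all tested genes were called. PRKAA1, the catalytic alpha 1 subunit and the most abundant at a mean of 22.1 FPKM, had 164, 169 and 173 normalized CPM in NC and 124, 123 and 126 in the group labelled GRIK1 siRNA. NC 3 was close to the other NC libraries, and the groups were apart. Its log2 fold change was -0.44 (SE 0.10, edgeR adjusted p = 0.0679), and it was called without NC 3 at -0.42 (SE 0.049, edgeR adjusted p = 3.88e-06). DESeq2 called it with all 6 libraries, at an adjusted p of 0.00262. PRKAA2, the alpha 2 subunit, was at or under 1.95 FPKM in each library and its log2 fold change was 0.20, or 0.19 without NC 3. PRKAA1 thus made up 94.5% ± 0.272 (SD, n = 3) of the summed alpha FPKM in NC and 91.7% ± 0.764 (SD, n = 3) in the other group. The beta subunits PRKAB1 and PRKAB2 were higher in each library labelled GRIK1 siRNA, by 0.21 and 0.27 on the log2 scale. Without NC 3 these were 0.12 and 0.37, and PRKAB2 was called. The share of PRKAB2 in the summed beta FPKM overlapped between the groups. Of the gamma subunits, PRKAG1 and PRKAG2 overlapped between the groups, with 0.22 and -0.24. Without NC 3, PRKAG1 was called at 0.53 and PRKAG2 was at -0.096. PRKAG1 made up 32.0%, 27.5% and 35.7% of the summed gamma FPKM in NC. In the other group it made up 42.9%, 37.6% and 38.0%, so the shares did not overlap.

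The LKB1 complex holds the kinase STK11 (LKB1), the scaffold CAB39 (MO25) and the pseudokinase STRADA. None of its 3 genes passed the test with 6 libraries (2 at an unadjusted p under 0.05). CAB39 had 83.9, 91.0 and 127 normalized CPM in NC and 68.9, 68.8 and 69.5 in the other group, and the latter averaged 69.1 ± 0.376 (SD, n = 3). The log2 fold change of this gene was -0.54 (SE 0.17, edgeR adjusted p = 0.116), and -0.34 without NC 3. STK11 had a log2 fold change of -0.25 (SE 0.10) and -0.28 (SE 0.056) without NC 3, where both STK11 and CAB39 were called lower (35.2% of all tested genes were called). STRADA was 0.48 with NC 3 and 0.17 without it, in each case under the threshold.

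In the mTOR complexes, 3 of 6 genes passed the test, namely MTOR, RICTOR and MLST8, against 3.09% of all tested genes. The 6 were listed with earlier results of these data known, and MTOR was just under the threshold (edgeR adjusted p = 0.0497). RPTOR, the mTORC1 scaffold raptor, had a log2 fold change of 0.32 (SE 0.18), and 0.18 without NC 3, and was not called in either fit. AKT1S1 (PRAS40), an inhibitor of mTORC1 and the most abundant of the 6 at a mean of 10.1 FPKM, had 64.7, 59.7 and 57.1 normalized CPM in NC and 56.3, 54.3 and 55.4 in the other group. The lowest NC value, 57.1 in NC 3, lay just above the highest of the other group, 56.3, and the log2 fold change was -0.13 (SE 0.11), or -0.17 (SE 0.067) without NC 3. DEPTOR, another inhibitor, was at a mean of 0.67 FPKM with overlapping groups, and its log2 fold change of -0.43 was -0.26 without NC 3.

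Per length, MTOR and MLST8 were close to each other in NC 1 and NC 2 and far apart in the other group. In NC, the FPKM of MTOR was 5.34, 5.10 and 2.71 and that of MLST8 was 4.50, 4.58 and 4.95, while in the other group MTOR had 9.86, 9.35 and 8.72 and MLST8 had 2.43, 2.14 and 2.88. The ratio of MTOR to MLST8 FPKM was 1.19, 1.11 and 0.547 in NC and 4.06, 4.37 and 3.03 in the other group. This ratio was chosen after the values were seen and is a description. RICTOR over RPTOR was 1.40, 1.40 and 2.23 in NC and 1.62, 2.07 and 2.19 in the other group, so these ratios overlapped through NC 3.

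The arm that controls mTORC1 holds the TSC complex (TSC1, TSC2), its target GTPase RHEB, the Rag GTPases (RRAGA, RRAGC, RRAGD), their lysosomal anchor LAMTOR1, and DEPDC5 and NPRL2 of GATOR1, which inactivates the Rag proteins when amino acids are scarce. RRAGD was the only one of the 9 to pass the test with 6 libraries, where 3.09% of all tested genes did. Without NC 3, 7 of the 9 passed, 4 higher and 3 lower, where 35.2% of all tested genes were called. RRAGA, the most abundant of all 60 genes, had 243, 258 and 450.0 normalized CPM in NC and 228, 212 and 225 in the other group. NC 3 alone was far above the rest, and the log2 fold change went from -0.52 (SE 0.24) to -0.18 (SE 0.048) without it. For RRAGC these values were -0.32 and -0.16.

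RRAGD and RRAGC are alternative partners of RRAGA. RRAGD made up 27.3%, 30.4% and 31.6% of their summed FPKM in NC and 18.9%, 20.0% and 20.5% in the group labelled GRIK1 siRNA. The NC mean was 29.8% ± 2.21 (SD, n = 3) and the other 19.8% ± 0.798 (SD, n = 3), with no overlap, and NC 3 did not stand apart in this share.

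Both GATOR1 genes were higher in each library labelled GRIK1 siRNA. DEPDC5 had 8.55, 6.91 and 4.91 normalized CPM in NC and 14.1, 12.4 and 12.6 in the other group. It had a log2 fold change of 0.94 (SE 0.22, edgeR adjusted p = 0.0633), and 0.75 (SE 0.15, edgeR adjusted p = 0.000612) without NC 3. NPRL2 had 11.8, 12.7 and 13.3 normalized CPM in NC and 21.3, 17.2 and 18.5 in the other group. NC 3 was close to the other NC libraries, and the log2 fold change of 0.59 (SE 0.14, edgeR adjusted p = 0.0681) was 0.63 (SE 0.12) without it. DESeq2 called both with 6 libraries. In TSC1 and TSC2, NC 3 was far below the other libraries. TSC2 in NC 3 lay 1.50 below the mean of NC 1 and NC 2 on the log2 scale, the widest gap of the 58 genes, and its fold change went from 0.51 to 0.16 without it. RHEB went from -0.11 to 0.15. Its processed copy RHEBP2 is listed at 45.6 to 74.4 FPKM, though with 339 to 625 counts per library against 2472 to 4427 for RHEB. The copy RHEBP1 had 34 to 98 counts. Some reads may be split between the copies, so RHEB is uncertain to that extent.

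Of the mTORC1 substrates, none of the 3 genes passed the test with 6 libraries (1 at an unadjusted p under 0.05). The genes of both translation repressors were called higher without NC 3, as were 16.9% of all tested genes. EIF4EBP1 (4E-BP1), with a mean of 86.0 FPKM, had 62.6, 68.5 and 80.0 normalized CPM in NC and 86.6, 79.0 and 79.6 in the other group. NC 3 lay within the range of the libraries labelled GRIK1 siRNA, and the log2 fold change was 0.22 (SE 0.13), or 0.32 (SE 0.067) without NC 3. EIF4EBP2 had 80.4, 83.5 and 120.3 normalized CPM in NC and 137, 122 and 128 in the other group. The groups were apart only by the gap between NC 3 and library 2 of the other group. The difference on the log2 scale was 0.45 (SE 0.17), and 0.66 (SE 0.061, edgeR adjusted p = 2.81e-07) without NC 3. The S6 kinase gene RPS6KB1 had a log2 fold change of 0.055 (SE 0.11), and 0.046 (SE 0.074) without NC 3.

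In the ULK complex, which starts autophagosome formation, 0 of 4 tested genes passed (1 at an unadjusted p under 0.05). ULK1 had 68.0, 64.1 and 32.5 normalized CPM in NC and 86.1, 79.7 and 85.0 in the other group. NC 3 was at 32.5, far below the other NC libraries, and the log2 fold change of 0.61 (SE 0.26) was 0.34 (SE 0.063, edgeR adjusted p = 0.000406) without it. RB1CC1 (FIP200), the scaffold and the most abundant of the complex at 14.1 FPKM, had 107, 102 and 139 normalized CPM in NC and 98.9, 104 and 102 in the other group. Its difference of -0.19 was -0.044 without NC 3. The adaptors ATG13 and ATG101 had log2 fold changes of -0.11 and -0.20, with overlapping groups. Without NC 3 both turned to 0.12 and 0.15, the groups were apart and neither was called.

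In the class III PI3-kinase complex, 0 of 5 genes passed with 6 libraries (1 at an unadjusted p under 0.05). BECN1 (Beclin 1), the regulatory core, had 51.1, 51.5 and 74.7 normalized CPM in NC and 35.8, 36.7 and 36.2 in the other group. The lowest NC library was above each library labelled GRIK1 siRNA. The log2 fold change was -0.71 (SE 0.17, edgeR adjusted p = 0.0696), and -0.50 (SE 0.074, edgeR adjusted p = 4.74e-05) without NC 3, and DESeq2 called it with 6 libraries at an adjusted p of 0.0117. ATG14, which directs the complex to autophagosomes, had 56.7, 60.7 and 71.8 normalized CPM in NC and 66.0, 65.9 and 69.9 in the other group. NC 3 was the highest of the 6, and the log2 fold change was 0.092 (SE 0.13), or 0.20 (SE 0.066) without it. The lipid kinase gene PIK3C3, UVRAG and AMBRA1 had -0.24, 0.056 and 0.022 with overlapping groups. Without NC 3 they had 0.16, 0.16 and -0.091, the groups of PIK3C3 and UVRAG were apart, and none of the 3 was called in either fit.

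The genes of membrane supply are the phosphoinositide readers WIPI1 and WIPI2, the lipid transfer proteins ATG2A and ATG2B and the scramblase ATG9A. None of the 5 passed with 6 libraries (1 at an unadjusted p under 0.05). WIPI2 and ATG2B were called higher without NC 3, as were 16.9% of all tested genes. ATG2A had 30.3, 27.5 and 14.0 normalized CPM in NC and 38.7, 32.7 and 31.6 in the other group. On the log2 scale it differed by 0.52 (SE 0.27), and 0.25 (SE 0.10, edgeR adjusted p = 0.0658) without NC 3. ATG2B had 0.44 and 0.30. WIPI1, the most abundant at 29.8 FPKM, had 88.5, 97.8 and 133 normalized CPM in NC and 96.8, 98.6 and 99.9 in the other group. NC 3 alone was apart, and the log2 fold change went from -0.11 to 0.082 without it.

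Of the 7 conjugation enzymes and partners, 0 passed with 6 libraries (3 at an unadjusted p under 0.05) and 4 did without NC 3, 1 higher and 3 lower, again against 35.2% of all tested genes. ATG10, the enzyme that joins ATG12 to ATG5, had 6.77, 7.45 and 9.01 normalized CPM in NC and 5.81, 4.40 and 4.74 in the other group. The log2 fold change of this gene was -0.64 (SE 0.20, edgeR adjusted p = 0.116), and -0.51 (SE 0.18, edgeR adjusted p = 0.0387) without NC 3. ATG10 shares 374 exonic bases with RPS23 on the opposite strand, a ribosomal protein gene with 53518 counts over the 6 libraries against 466 for ATG10 and with a log2 fold change of -0.65. How reads were assigned by strand is not given in the sources used here, so ATG10 cannot be told apart from RPS23. ATG12 had -0.53, and -0.25 without NC 3. ATG16L1, which places the conjugation machinery on the membrane, had 0.33, and 0.37 without NC 3. ATG3, the E2-like enzyme of the ATG8 proteins and the most abundant of the 7, had 91.2, 99.4 and 127 normalized CPM in NC and 94.5, 98.7 and 99.0 in the other group. Apart from NC 3, its libraries lay within the range of NC 1 and NC 2, and the log2 fold change was -0.12 (SE 0.15), or 0.033 (SE 0.058) without NC 3. ATG5 had the widest gap of NC 3 upwards among the 58 genes, at 1.18 above the mean of NC 1 and NC 2, and its fold change went from -0.39 to 0.11.

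The ATG8 proteins are made as precursors that ATG4 cuts behind a glycine, which is then joined to a lipid. The last 36 bases of each coding sequence are shown to tell the 5 genes apart (GENCODE 29, GRCh38), with the codon of that glycine in capitals. MAP1LC3B has 5 codons between the glycine and the stop, and each of the other 4 has 1.
MAP1LC3A: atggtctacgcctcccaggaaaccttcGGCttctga
MAP1LC3B: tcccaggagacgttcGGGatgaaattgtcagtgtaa
GABARAP: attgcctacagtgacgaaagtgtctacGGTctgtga
GABARAPL1: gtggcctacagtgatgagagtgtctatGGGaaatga
GABARAPL2: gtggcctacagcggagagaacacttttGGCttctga

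These ends lie at chr20:34559863-34559898, chr16:87403062-87403097, chr17:7240854-7240889, chr12:10221817-10221852 and chr16:75577334-75577369, in that order. Over the whole coding sequences, the pairs were 50.7% to 76.8% identical, with GABARAP and GABARAPL1 the closest. MAP1LC3B2, a near copy of MAP1LC3B, is listed at 2.60 to 4.04 FPKM, so a small part of the reads may be shared.

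MAP1LC3B was the only ATG8 gene with a positive fold change. It had 268, 286 and 318 normalized CPM in NC and 346, 351 and 343 in the group labelled GRIK1 siRNA. The groups were apart, and the log2 fold change was 0.25 (SE 0.12, edgeR adjusted p = 0.234), or 0.33 (SE 0.047, edgeR adjusted p = 3.90e-05) without NC 3. The GABARAP branch was lower in each library labelled GRIK1 siRNA. GABARAP had 125, 128 and 210.3 normalized CPM in NC and 108, 108 and 105 in the other group. GABARAPL2 had 75.9, 82.6 and 146 in NC and 64.2, 67.2 and 62.7 in the other group. In both, NC 3 stood far above, and their log2 fold changes of -0.53 (SE 0.21) and -0.65 (SE 0.25) were -0.24 (SE 0.052) and -0.29 (SE 0.064) without it. GABARAPL1 had -0.43, and -0.22 without NC 3. MAP1LC3A had 12.8, 10.7 and 7.56 normalized CPM in NC and 8.17, 6.18 and 5.56 in the other group. Here NC 3 was below the highest library of the other group, and the log2 fold change of -0.64 (SE 0.25) was -0.83 (SE 0.17) without it. With 6 libraries 0 of the 5 passed the test (4 at an unadjusted p under 0.05, as were 3987 of all 15870 tested genes). Without NC 3 all 5 did, 1 higher and 4 lower, where 35.2% of all tested genes were called.

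The make-up of the ATG8 transcripts therefore differed between the groups. MAP1LC3B made up 30.3%, 31.2% and 24.4% of the summed FPKM in NC and 40.0%, 40.5% and 40.7% in the other group. GABARAP made up 36.3%, 36.1% and 41.6% in NC and 32.4%, 32.1% and 32.2% in the other group. GABARAP was thus ahead of MAP1LC3B in each NC library, and MAP1LC3B ahead of GABARAP in each library labelled GRIK1 siRNA. The summed FPKM of the 5 genes was 178, 182 and 229.8 in NC and 177, 176 and 171 in the other group, so that NC 1 and NC 2 lay near the other group in sum.

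**Figure D4:**
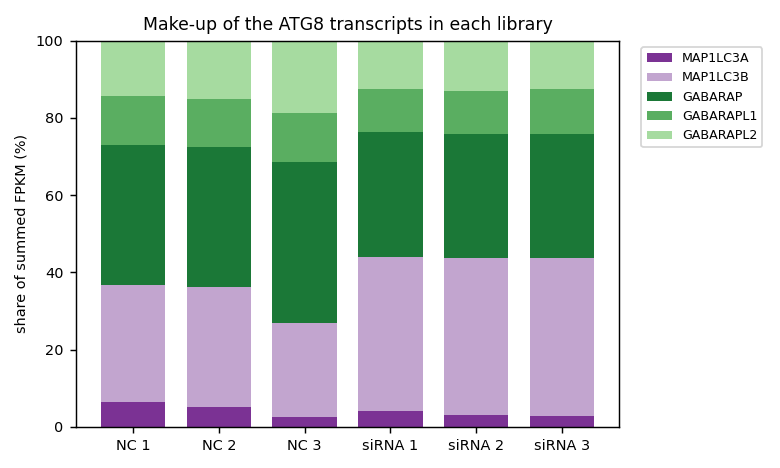
Share of each ATG8 gene in the summed FPKM of the 5 genes (stacked bars from 0 to 100%) in each of the 6 libraries. MAP1LC3B takes 24.4% to 31.2% in NC and 40.0% to 40.7% in the group labelled GRIK1 siRNA.

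Of the 4 cargo receptors, 0 passed with 6 libraries (1 at an unadjusted p under 0.05). SQSTM1 (p62), the receptor of ubiquitinated cargo, had 993, 963 and 1019 normalized CPM in NC and 972, 852 and 871 in the other group. The groups overlapped, NC 3 was close to the other NC libraries, and the log2 fold change was -0.14 (SE 0.13) and -0.12 (SE 0.056) without NC 3. OPTN, a receptor for damaged mitochondria, had 205, 209.9 and 282 normalized CPM in NC and 172, 171 and 173 in the other group. Each library labelled GRIK1 siRNA was below each NC library. It had a log2 fold change of -0.43 (SE 0.15, edgeR adjusted p = 0.143), and -0.27 (SE 0.046, edgeR adjusted p = 0.000202) without NC 3. NBR1 had -0.096, and -0.018 without NC 3, with overlapping groups. TAX1BP1 turned from -0.23 with overlapping groups to 0.071 without NC 3, where the groups were apart, and neither gene was called in either fit. The transcription factor gene FOXO3, whose product drives several autophagy genes, had 53.6, 58.3 and 46.5 normalized CPM in NC and 62.8, 64.5 and 62.3 in the other group, a log2 fold change of 0.26 (SE 0.12), or 0.18 (SE 0.066, edgeR adjusted p = 0.0472) without NC 3.

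How NC 3 moved the genes is shown by its own ratio. On the log2 scale NC 3 lay between -1.50 (TSC2) and 1.18 (ATG5) from the mean of NC 1 and NC 2. The median absolute gap was 0.44 over the 58 genes and 0.45 over all tested genes, while NC 2 and NC 1 differed by a median of 0.089 over the 58. NC 3 was higher than both other NC libraries in 38 of the 58 genes and lower than both in 18. In 37 of the 58 it differed from NC 1 and NC 2 by more than the mean of the libraries labelled GRIK1 siRNA did. Across the 58 genes its ratio had a Pearson r of -0.41 with log2 exonic size, and across all tested genes 0.0082. This is a description across genes of shared libraries. Of 10 of the genes with over 10000 exonic bases NC 3 was below the mean of the other NC libraries in 7, and of 15 with under 5000 bases it was above in 13. The part of length in the fold changes was not tested beyond the corrected fit, in which 3 of the 58 genes were called, MLST8, RRAGD and NPRL2.

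**Figure D5:**
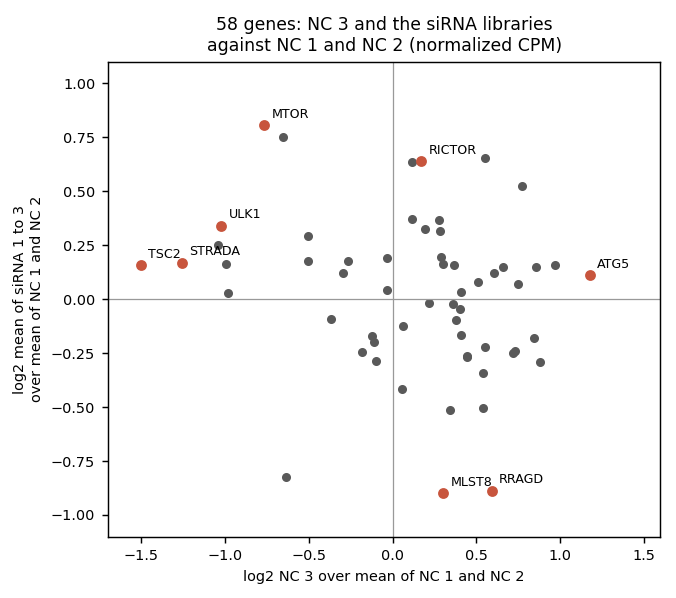
Log2 ratio of NC 3 (horizontal axis) and of the mean of the 3 libraries labelled GRIK1 siRNA (vertical axis) to the mean of NC 1 and NC 2, in normalized CPM, for the 58 tested genes, with MTOR, RICTOR, MLST8, RRAGD, TSC2, STRADA, ULK1 and ATG5 in red and named. Points spread from -1.50 to 1.18 along the horizontal axis and less along the vertical one.

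Several of the 60 genes overlap other genes, and since the use of strand in counting is not stated, reads there may be counted for neither or for either gene. Of the 60, 49 have an overlapping gene, and 19 have one on the opposite strand with at least 10% of their own counts. RICTOR shares 229 exonic bases with OSMR on the opposite strand, which had 10123 counts over the 6 libraries against 8789 for RICTOR. OSMR had a log2 fold change of 0.29 (edgeR adjusted p = 0.431). BECN1 shares 300 exonic bases with PSME3, which had 5921 counts against 3495 and a log2 fold change of -0.37 (edgeR adjusted p = 0.212). WIPI1 shares 828 with ARSG, which had a log2 fold change of 0.99 (edgeR adjusted p = 0.0240). TSC2 shares 778 with PKD1, which had 9430 counts against 3036 and a log2 fold change of 0.94 (edgeR adjusted p = 0.179). ATG7 shares 1596 with VGLL4, ATG12 shares 378 with AP3S1 and AKT1S1 shares 392 with TBC1D17. The log2 fold changes of these 3 partners were -0.50, -0.32 and -0.024. The opposite-strand overlaps of MTOR are with genes of at most 7 counts, and MLST8 overlaps BRICD5, with 37 counts.

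Other genes of the same pathways were taken from lists of 97 genes that hold none of the 60. Of these, 89 were tested and 7 passed with 6 libraries (7.87%, against 3.09% of all tested genes), 6 higher and 1 lower. The median log2 fold change of the 89 was -0.042. Without NC 3, 39 of the 89 were called (43.8%, against 35.2% of all tested genes), 19 higher and 20 lower.

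Among 14 tested AMPK inputs and targets, 5 passed, against 3.09% of all tested genes. This list too was chosen with earlier results of these data known. The acetyl-CoA carboxylase genes, whose products AMPK phosphorylates and so restrains fatty acid synthesis, both rose. ACACA had 27.7, 21.3 and 21.7 normalized CPM in NC and 54.1, 55.7 and 52.5 in the other group, a log2 fold change of 1.20 (SE 0.14, edgeR adjusted p = 0.0205). ACACB rose by 1.27 on the log2 scale (SE 0.25, edgeR adjusted p = 0.0450), from 7.08 to 14.5 normalized CPM in NC to between 25.4 and 28.7. PFKFB4, which sets the glycolytic activator fructose 2,6-bisphosphate, had 41.7, 36.1 and 22.9 normalized CPM in NC and 83.1, 81.4 and 80.8 in the other group (log2 fold change 1.29, edgeR adjusted p = 0.0341). PPARGC1A, a coactivator of mitochondrial genes, had 12.8, 13.3 and 12.3 normalized CPM in NC and 4.87, 5.17 and 6.30 in the other group, and fell by 1.23 on the log2 scale (SE 0.16, edgeR adjusted p = 0.0261). ACACA, ACACB, PFKFB4 and PPARGC1A were called without NC 3 too, at 1.14, 1.01, 1.07 and -1.26 in that order.

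Of 32 tested mTOR partners and nutrient sensors, 1 passed (3.1%, against 3.09% of all tested genes). Of 17 tested further autophagy receptors, 1 passed (5.88%). It was WDFY3 (ALFY), a scaffold for protein aggregates, with a log2 fold change of 0.88 (SE 0.16, edgeR adjusted p = 0.0387), and 0.73 without NC 3. None of the 23 tested further core and fusion genes passed with edgeR (4 at an unadjusted p under 0.05, and 2 called by DESeq2 and 0 by limma), among which the tethering factor gene EPG5 had the widest change, at 0.87 (SE 0.18, edgeR adjusted p = 0.0521), or 0.69 (SE 0.078) without NC 3. None of the 3 tested genes of the TFEB family list passed with edgeR (0 at an unadjusted p under 0.05), DESeq2 or limma. TFE3 had 132, 129 and 93.3 normalized CPM in NC and 129, 142 and 137 in the other group, with 0.20 on the log2 scale and 0.060 without NC 3. TFEB itself was below the filter at a mean of 0.465 FPKM. As with the 60 genes, none of these 7 calls was kept when any 1 library other than NC 3 was left out.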

How the data were processed

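Per the labels, total RNA of U87-MG cells was sequenced in 6 libraries. The authors deposited 1 table with whole-number counts per gene, without normalization, and FPKM values, which equalled the count scaled to exonic size and to the library total in 100% of values. The submitters' processing notes name cutadapt 1.9.1, HISAT2, HTSeq and GRCh38. The annotation release and the strand setting are not given in the sources used here.

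Groups were taken from the labels. Counts of the genes whose mean reached 0.5 FPKM were tested with edgeR 4.0.16 (quasi-likelihood test, TMM scaling, Benjamini-Hochberg adjustment over 15870 genes) in R 4.3.3. Alternatives were DESeq2 1.42.0, limma 3.58.1 on log2(FPKM + 1) and log2(FPKM + 0.1), other scaling and filters, a replicate block, a length correction (lowess, span 0.3) and leaving out each library. The tests were tested on simulated data. In these no library stood apart as NC 3 does, and the planted changes were larger than any of the 58 genes. GRIK1 was compared by an exact permutation test. Python 3.11.15 with numpy 2.4.6, pandas 2.3.3 and scipy 1.17.1 was used elsewhere.

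Total counts of 11099909 to 14006968 leave a count of 0 with a limit of 3 counts, for counting error only. The 60 genes and the lists were chosen with earlier results of these data known. Values in every library are given for genes called with 6 libraries, for those called without NC 3 with an absolute log2 fold change over 0.5 in both fits, and for the most abundant and the most changed gene of each role. Of the other lists, called genes and the widest change of each list are named, except for 2 that are not reported here. MAP1LC3B, ATG16L1 and others named with a fold change alone were added to describe their role. Promoters are from RefSeq (GRCh38.p14) and coding ends from GENCODE 29.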

Additional observations from a re-analysis of the deposited data

How the results depend on the processing

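The number of the 58 genes called, 4 with 6 libraries, was between 3 and 5 with RLE scaling, other filters, limma or the length correction, and 8 with DESeq2 (1684 of all genes). The count with an absolute log2 fold change over 1, 3 with 6 libraries, was 1 with a filter of 1 FPKM and with the length correction, and 0 with limma at either pseudocount. Leaving out 1 library gave 0 to 33 called genes, 0 with such a fold change, and a median log2 fold change between -0.16 and 0.076. The 33 came without NC 3. Limma gave a median of -0.0034 and -0.0033 with pseudocounts of 0.1 and 1. Of the other pathway genes, 7 were called with 6 libraries, 18 with DESeq2, 13 without a filter, 4 with limma at a pseudocount of 0.1, and 0 to 39 when 1 library was left out. The common dispersion was 0.0391 with 6 libraries and 0.00298 without NC 3.

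Libraries that share a number deviated from their group means with correlations of -0.0703 to 0.0441, and those of unlike number with -0.0615 to 0.0835. With NC 3 apart, the NC deviations follow mostly this library. The values therefore cannot tell whether equal numbers share a culture or a day, which the labels do not state. With the replicate block, 0 of the 58 genes, 0 with the fold and 0 of the other pathway genes were called (18 of the 58 at an unadjusted p under 0.05), and the same 3 counts were 0 with the length correction and the block. WIPI1 turned to 0.0020 with the length correction and the block and to 0.082 without NC 3, and ATG3 to 0.033 without NC 3. When 1 library was left out, WIPI1 ranged from -0.22 to 0.082 and ATG3 from -0.21 to 0.033. The causes were not tested. The fewest counts over the 6 libraries among the tested genes were 132 for DEPTOR, 466 for ATG10, 616 for MAP1LC3A and 688 for PRKAG1.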
